A study of Mus musculus with 3 samples.

Results

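Galectins are lectins that bind β-galactoside sugars through a conserved carbohydrate recognition domain. Transcripts of 6 galectin genes (Lgals1, Lgals3, Lgals4, Lgals7, Lgals8 and Lgals9) and of Lgals3bp, the gene of a secreted glycoprotein that binds galectin 3, were described in 3 RNA sequencing libraries of mammary cells from mice of FVB background. These 7 genes were picked out by gene name from the 22077 names analysed. The first library (LCC, for cells that colonize lungs) held GFP or DDAO-stained mammary cells that had been given intravenously and were sorted back out of the recipients' lungs after 1 day, with no gate on EpCAM or CD29 stated. The steps per experiment are described for GFP donors. Glands of 8 GFP females were dissociated and the cells went into 4 FVB recipients, in 2 doses of 2500000. The label also names DDAO-stained mammary cells from FVB mice, and it does not split the experiments between these donors. The LCC RNA came from 455880 cells out of 42 lungs, pooled over 15 experiments. The second library (E-Int29-Hi) held the EpCAM-Int, CD29-Hi fraction of dissociated gland, described as enriched in the lung-seeding population, and combined 3 samples. MG, the third, was intact gland tissue that had not been dissociated and likewise combined 3 samples. The sources used here give no ages, and no sex for E-Int29-Hi and MG donors. The stated purpose was to profile LCC and identify what sets the 3 populations apart.

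Galectins have no secretion signal, act in the cytosol as well as outside the cell, and crosslink glycoproteins at the surface. They are grouped by build: prototype galectins carry a single recognition domain, tandem-repeat galectins carry a pair of different ones on the same chain, and galectin 3, the chimera, joins its domain to a tail through which it forms multimers. Galectin 3 is also known as Mac-2, a macrophage antigen, and is made by many epithelia, whereas galectin 1 is common in stroma and galectin 7 in stratified epithelia.

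Levels are the authors' FPKM values, which are scaled by gene length and by library size, so that genes can be set beside each other. Differences are log2 ratios of FPKM + 1, which understate the change of low genes, and a gene was counted as higher or lower where the libraries were at least 4-fold apart on that scale. Each group had 1 library, so no test was possible, no spread between replicates is known, and neighbours in an order of levels cannot be separated from their error. The sources used here give no read totals. The libraries had 11298 (LCC), 11033 (E-Int29-Hi) and 12024 (MG) names at 1 FPKM or more. The labelled identity of E-Int29-Hi was checked on 11 basal and myoepithelial markers, which summed to 686 FPKM in LCC, 7845 FPKM in E-Int29-Hi and 569 FPKM in MG. Markers of lung epithelium were present in LCC: 12 of them summed to 657 FPKM in LCC, of which Scgb1a1 of airway club cells held 572 FPKM, against 14.6 FPKM in E-Int29-Hi and 21.8 FPKM in MG. Their part in the galectin levels was not tested. In pooled RNA, fewer cells of a type and less RNA per cell cannot be told apart.

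The promoters of Lgals3 and Lgals3bp, which stood higher together in LCC than in E-Int29-Hi, and of Lgals7 and Lgals9, which stood lower, are shown from RefSeq (build GRCm38.p6). Each runs 5′ to 3′ on the gene's strand, from 250 bases before to 50 bases after the annotated start. Of the 7 genes, 6 matched the promoter table, and Lgals1 did not. The windows of Lgals4, which also stood lower in LCC than in E-Int29-Hi, and of Lgals8 are not printed. Capitals mark matches on either strand to the AP-1 motif TGANTCA, the NF-kB motif, the interferon regulatory factor (IRF) motif, the TATA motif TATAAA or the GC box GGGCGG. No marked match overlaps another in these windows.
Lgals3, chr14:47373610-47373909, plus strand: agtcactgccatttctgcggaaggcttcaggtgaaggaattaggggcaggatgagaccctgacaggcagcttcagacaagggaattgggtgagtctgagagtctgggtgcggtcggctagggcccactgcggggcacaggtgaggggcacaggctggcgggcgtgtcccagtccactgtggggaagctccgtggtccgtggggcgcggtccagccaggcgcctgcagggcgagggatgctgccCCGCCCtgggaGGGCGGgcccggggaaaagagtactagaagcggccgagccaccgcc
Lgals3bp, chr11:118401910-118402209, minus strand: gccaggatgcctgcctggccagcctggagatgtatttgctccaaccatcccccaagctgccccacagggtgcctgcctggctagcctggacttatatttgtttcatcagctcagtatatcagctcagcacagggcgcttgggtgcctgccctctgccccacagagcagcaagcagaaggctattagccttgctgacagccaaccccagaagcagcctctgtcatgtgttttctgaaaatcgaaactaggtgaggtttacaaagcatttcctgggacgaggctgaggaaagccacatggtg
Lgals7, chr7:28864136-28864435, plus strand: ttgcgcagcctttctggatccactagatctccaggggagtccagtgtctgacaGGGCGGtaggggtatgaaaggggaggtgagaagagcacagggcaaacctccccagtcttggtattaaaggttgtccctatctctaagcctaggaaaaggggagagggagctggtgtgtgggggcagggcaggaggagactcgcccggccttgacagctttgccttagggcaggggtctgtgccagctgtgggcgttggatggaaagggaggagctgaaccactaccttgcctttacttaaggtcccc
Lgals9, chr11:78984875-78985174, minus strand: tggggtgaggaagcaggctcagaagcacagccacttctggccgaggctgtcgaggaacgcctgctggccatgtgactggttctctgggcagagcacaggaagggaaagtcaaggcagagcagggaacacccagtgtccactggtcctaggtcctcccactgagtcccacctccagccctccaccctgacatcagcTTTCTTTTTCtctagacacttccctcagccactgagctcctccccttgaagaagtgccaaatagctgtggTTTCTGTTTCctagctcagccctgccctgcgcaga

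The Lgals3 window held 2 GC boxes, of opposite orientation, on either side of the start. The Lgals7 window held 1 GC box, 197 bases before the start, and the Lgals3bp window held none of the 5 motifs. The Lgals9 window held 2 IRF matches, 55 bases before and 15 bases after the start. Of the windows not printed, that of Lgals4 held 1 GC box and that of Lgals8 held 1 NF-kB match. Among 32851 promoter windows of this length, the GC box was present in 35.7%, the TATA motif in 13.6%, AP-1 in 7.81%, NF-kB in 4.51% and IRF in 3.44%. These matches are letters in a window and were not tested for binding.

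The galectin transcripts differed between the libraries both in amount and in make-up. The 7 genes summed to 1754 FPKM in LCC, 226 FPKM in E-Int29-Hi and 596 FPKM in MG, or 0.467%, 0.0693% and 0.207% of the summed FPKM of each library. In LCC, Lgals3 held 58.5% and Lgals1 37.0% of the 7-gene sum. In E-Int29-Hi, Lgals1 held 34.1%, Lgals7 31.7%, Lgals9 18.4% and Lgals3 only 6.51%. In MG, Lgals3 alone held 73.9% and Lgals1 12.9%. The ratio of Lgals3 to Lgals1 was 1.58 for LCC, 0.191 for E-Int29-Hi and 5.71 for MG.

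**Figure D1:**
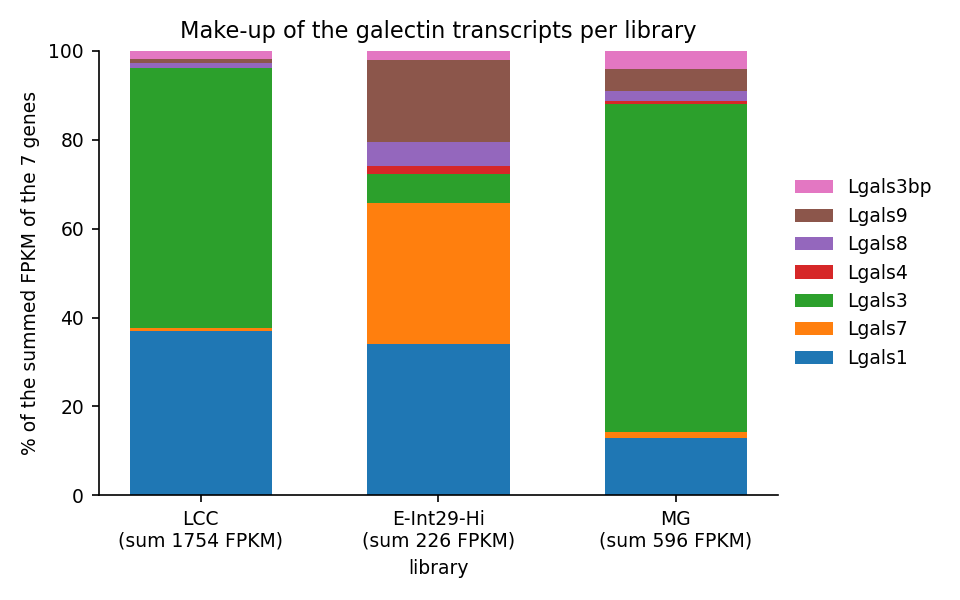
Share of the summed FPKM of the 7 genes held by each gene (y axis, %), with 1 stacked bar per library and the sum in FPKM below it. Lgals3 (green) and Lgals1 (blue) fill most of the LCC bar, and Lgals3 most of the MG bar, whereas in E-Int29-Hi Lgals1, Lgals7 (orange) and Lgals9 (brown) take the larger shares.

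**Figure D2:**
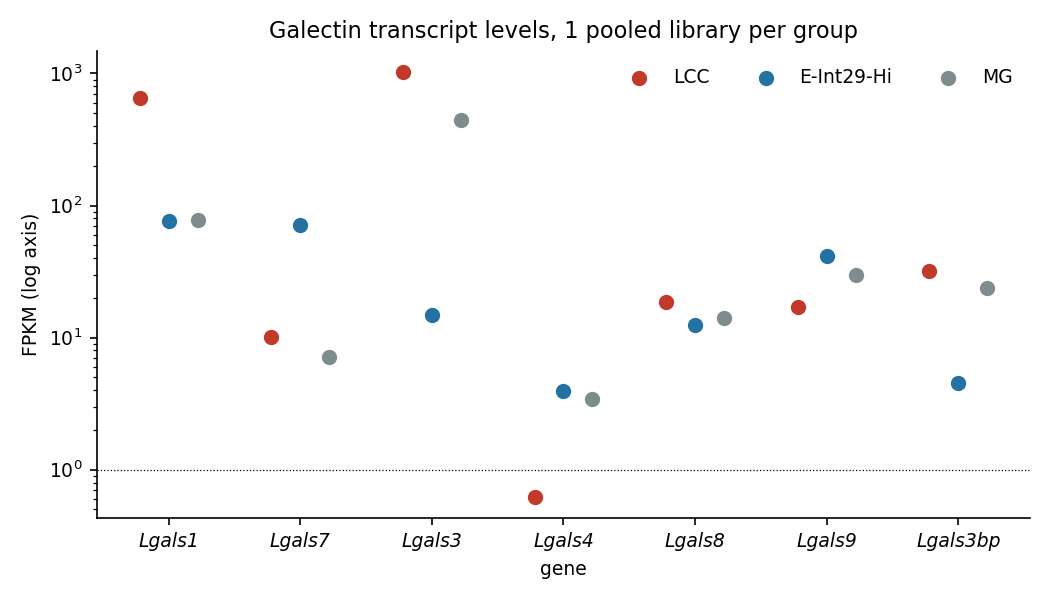
FPKM of each gene (y axis, log scale) in LCC, E-Int29-Hi and MG, 1 pooled library per point, with no replicates. The dotted line marks 1 FPKM. Lgals3 and Lgals3bp are lowest in E-Int29-Hi, Lgals7 is highest there, and Lgals8 lies within 12.6 to 18.6 FPKM in all 3 libraries.

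LCC over E-Int29-Hi sets lung-recovered cells against the sorted fraction described as enriched for them. Of the 7 genes, all of which passed the filter of 1 FPKM in either library, Lgals1, Lgals3 and Lgals3bp were at least 4-fold higher and Lgals7 was at least 4-fold lower. That is 57.1% of the genes past 4-fold in either direction, against 8.99% of all 12147 genes. The 7 genes were chosen with earlier results of these data known, so such shares are no test, here or in the other comparisons. By direction, the background was 4.64% higher and 4.35% lower. At 2-fold, the same 3 genes were higher (background 21.2%) and Lgals4, Lgals7 and Lgals9 were lower (background 14.1%), or 6 of 7 against 35.3% of all genes. A pseudocount of 5 FPKM took Lgals4 to -0.67, within 2-fold. With TPM rescaling the galectin count was 3 higher and 2 lower. Over all genes the count of 564 higher and 528 lower became 451 and 700 with median ratio scaling, and 705 and 942 with TPM rescaling. The median of the 7 log2 changes was 0.53, beside 0.26 over all genes, and median ratio scaling took the median of all genes to 0.001.

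LCC was compared with MG to set the recovered cells beside the gland. Lgals1 was the only gene of the 7 past 4-fold, and it was higher, so that 14.3% of the genes were past 4-fold against 3.96% of all 12443 genes. By direction, the background was 1.33% higher and 2.63% lower. At 2-fold, Lgals1 and Lgals3 were higher (background 10.9%) and Lgals4 was lower (background 12.8%), or 3 of 7 against 23.8% of all genes. These 2-fold calls were less firm: with TPM rescaling Lgals3 was at 0.84 and Lgals9 at -1.15, and with a pseudocount of 5 FPKM Lgals4 was at -0.58. TPM rescaling added 1 lower galectin gene, Lgals4, and turned the count over all genes of 166 higher and 327 lower into 157 and 919. The median of the 7 log2 changes was 0.40, beside 0.01 over all genes (-0.41 with TPM rescaling).

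E-Int29-Hi was compared with MG to set the gated fraction beside the gland. Lgals7 was at least 4-fold higher, and Lgals3 and Lgals3bp were at least 4-fold lower, which is 42.9% of the 7 genes against 6.57% of all 12430 genes. By direction, the background was 2.60% higher and 3.97% lower. At 2-fold the calls were those at 4-fold, with a background of 8.99% higher, 15.5% lower and 24.5% in either direction. The count over all genes of 323 higher and 494 lower became 465 and 356 with median ratio scaling, and 375 and 1011 with TPM rescaling. The 3 comparisons share libraries, so a gene that stands apart in a single library is counted more than once.

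**Figure D3:**
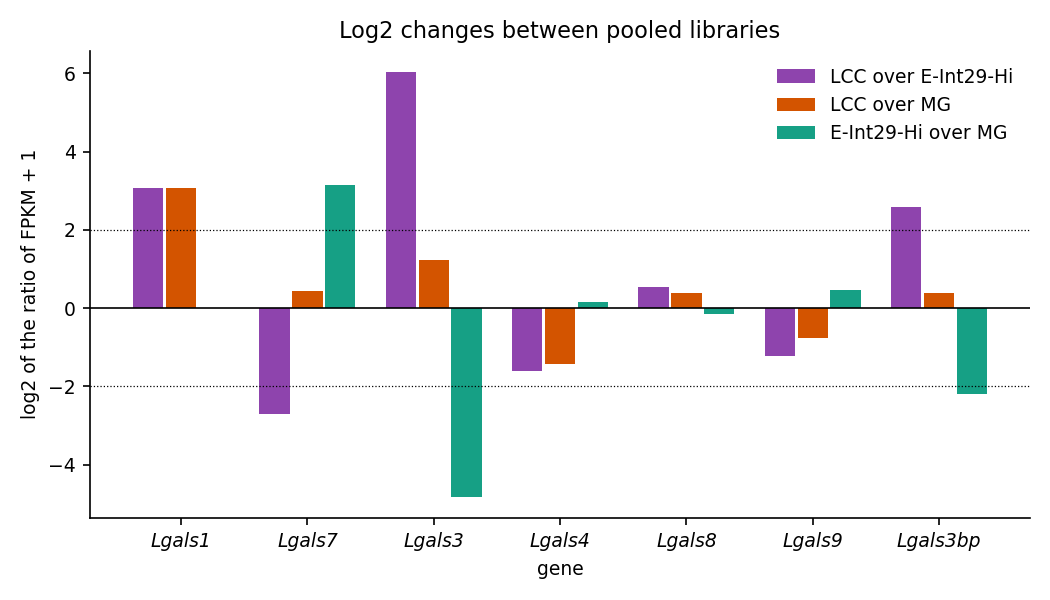
Log2 ratio of FPKM + 1 (y axis) for each gene in the comparisons LCC over E-Int29-Hi, LCC over MG and E-Int29-Hi over MG, from 1 pooled library per group and so without error bars. Dotted lines mark a 4-fold difference. Lgals3 has the longest bars, 6.03 and -4.81, in both comparisons with E-Int29-Hi.

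Among the prototype galectins, Lgals1 (ENSMUSG00000068220), which encodes galectin 1, a dimeric lectin known for effects on T cell survival and cell adhesion, stood at 649.7 FPKM in LCC, 77.0 FPKM in E-Int29-Hi and 77.1 FPKM in MG. LCC alone was high, and E-Int29-Hi and MG were level. The log2 change was 3.06 for LCC over E-Int29-Hi and 3.06 for LCC over MG, an 8.44-fold and an 8.43-fold ratio of FPKM. Among all genes that was the 34th highest change over MG and the 180th highest over E-Int29-Hi. Under the other pseudocounts and scalings the change over MG ranged from 2.69 to 3.11 and that over E-Int29-Hi from 2.77 to 3.07. For E-Int29-Hi over MG it was -0.002, with a sign that turned under median ratio scaling (0.33). A RefSeq long non-coding gene, Gm30368, overlaps Lgals1, and a pseudogene, Lgals1-ps1, is annotated there on another chromosome. The sources used here do not say how shared or antisense reads were counted, so the Lgals1 level is uncertain to that extent.

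Leukocyte markers also had higher sums in LCC. The 12 macrophage and monocyte markers summed to 522 FPKM in LCC, 119.95 FPKM in E-Int29-Hi and 209.8 FPKM in MG, with 8, 9 and 9 of the 12 at 1 FPKM or more. The lysosomal genes Lyz2 and Ctss stood at 232 and 162 FPKM in LCC, 60.6 and 9.34 FPKM in E-Int29-Hi, and 28.5 and 14.5 FPKM in MG. Not every marker shared this order: Cd14 stood at 51.1 FPKM in LCC, 15.96 FPKM in E-Int29-Hi and 130.3 FPKM in MG. The resident macrophage marker Cd163 stood at 0.0363 FPKM in LCC, 0.972 FPKM in E-Int29-Hi and 1.54 FPKM in MG, Siglec1 at 0.128, 3.15 and 0.621 FPKM, and Mrc1 at 1.78, 3.95 and 6.53 FPKM. The 10 pan-leukocyte and lymphocyte markers summed to 76.1 FPKM in LCC, 9.95 FPKM in E-Int29-Hi and 34.9 FPKM in MG, of which the lysosomal membrane gene Laptm5 held 45.2, 6.30 and 17.5 FPKM. No marker of either list was listed at 0. Their part in the levels of Lgals1, Lgals3 and Lgals3bp was not tested.

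Over the 3 libraries, the genes whose centred log2 levels lay nearest to those of Lgals1, among 6308 named genes reaching 10 FPKM, were Clec4n, a C-type lectin receptor of myeloid cells (distance 0.108), Acot7, an acyl-CoA thioesterase (0.242), and Esd, esterase D (0.294). The nearest of 60 marker genes were Itgax, an integrin of dendritic cells and macrophages (0.336), and Ctss (0.658). With 3 libraries such a pattern has few degrees of freedom, and the distances describe likeness in level only.

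Lgals7 (ENSMUSG00000053522), which encodes galectin 7, a prototype galectin of stratified epithelia, was highest in another library than Lgals1. It stood at 10.04 FPKM in LCC, 71.5 FPKM in E-Int29-Hi and 7.16 FPKM in MG. E-Int29-Hi alone was high, and LCC and MG were close together. The log2 change was -2.72 for LCC over E-Int29-Hi, 0.44 for LCC over MG and 3.15 for E-Int29-Hi over MG, the 67th highest of all genes in that comparison. Both 4-fold calls held under each alternative, with changes from -2.995 to -2.35 over E-Int29-Hi and from 2.65 to 3.47 for E-Int29-Hi over MG. In E-Int29-Hi, Lgals7 was the second most abundant of the 7 genes and stood close to Lgals1, at a ratio of 0.929. In LCC the same ratio was 0.0155, and in MG it was 0.0928.

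The basal markers that summed highest in E-Int29-Hi all shared the direction of Lgals7 between LCC and E-Int29-Hi, with 11 of 11 at least 4-fold lower in LCC. Between LCC and MG most did not: 8 of 11 were lower in LCC, Myh11 and Oxtr at least 4-fold, with a median log2 change of -1.05, beside 0.44 for Lgals7. For E-Int29-Hi over MG, 8 of 11 were at least 4-fold higher. The basal keratin genes Krt5 and Krt14 were the marker genes nearest to Lgals7 over the libraries (distances 0.376 and 0.960). Krt5 stood at 92.3 FPKM in LCC, 426 FPKM in E-Int29-Hi and 60.7 FPKM in MG, and Krt14 at 209.8, 2380 and 104 FPKM. The nearest genes of any kind were Shroom3, an actin regulator of epithelial shape (0.197), Osgin1, an oxidative stress-induced growth inhibitor (0.219), and Moxd1, a monooxygenase (0.251). The sum of the 12 stratified and skin markers did not share the pattern. It was 26.3 FPKM in LCC, 10.3 FPKM in E-Int29-Hi and 171 FPKM in MG. Of the MG sum, Krt4 held 101.6 FPKM and Krt6a 39.5 FPKM. Krt1, Krt10, Krt13, Ivl, Lor, Flg, Dsg1a and Krtdap each stayed under 1 FPKM in every library. Flg and Krtdap were listed at 0 in E-Int29-Hi, and Krt1, Ivl, Flg, Dsg1a and Krtdap were listed at 0 in LCC.

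Lgals3 (ENSMUSG00000050335), the chimera galectin, was the most abundant of the 7 genes in LCC and in MG and ranked 4 in E-Int29-Hi. It stood at 1026 FPKM in LCC, 14.7 FPKM in E-Int29-Hi and 441 FPKM in MG. LCC and MG were both high and E-Int29-Hi alone was low. Among all names its rank was 30 for LCC, 3692 for E-Int29-Hi and 69 for MG. The log2 change was 6.03 for LCC over E-Int29-Hi, a 69.8-fold ratio of FPKM and the 11th highest of 12147 genes. For E-Int29-Hi over MG it was -4.81, the 17th lowest of 12430 genes. For LCC over MG it was 1.22, a 2.33-fold ratio that did not reach 4-fold and lay above 93.2% of all genes. Under each alternative the change over E-Int29-Hi stayed between 5.71 and 6.11, and the change over MG between 0.84 and 1.27.

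Luminal epithelial and fibroblast marker sums were also lowest in E-Int29-Hi. The 12 luminal markers summed to 4764 FPKM in LCC, 330 FPKM in E-Int29-Hi and 2583 FPKM in MG, with 6 of 12 at least 4-fold higher in LCC than in E-Int29-Hi and 10 of 12 at least 4-fold lower in E-Int29-Hi relative to MG. Most of the LCC sum was held by the keratin genes Krt18 (2368 FPKM) and Krt8 (1258 FPKM). Relative to MG, 7 of 12 were lower in LCC and 0 were at least 4-fold higher, with a median log2 change of -1.06. Krt18, a luminal keratin gene, and Aldh1a3, a retinaldehyde dehydrogenase gene of luminal progenitors, were the markers nearest to Lgals3 (distances 1.00 and 0.736). Aldh1a3 stood at 83.5 FPKM in LCC, 1.17 FPKM in E-Int29-Hi and 71.8 FPKM in MG. Not all luminal markers shared this order: 8 of 12 were higher and 4 of 12 lower in LCC relative to E-Int29-Hi, and Elf5, Prom1, Esr1 and Pgr, which were those 4, were also at least 4-fold lower in LCC relative to MG. The hormone receptor gene Pgr stood at 0.179 FPKM in LCC, 2.07 FPKM in E-Int29-Hi and 43.9 FPKM in MG, and the hormone receptor gene Esr1 at 0.734, 3.06 and 10.6 FPKM. The 10 fibroblast markers summed to 1452 FPKM in LCC, 151 FPKM in E-Int29-Hi and 3136 FPKM in MG. All 10 were higher in LCC than in E-Int29-Hi, 7 of them at least 4-fold. Relative to MG all 10 were lower in LCC, with a median log2 change of -1.04, beside 1.22 for Lgals3. The part of either list in the Lgals3 level was not tested. The other genes nearest to Lgals3 were Mfap5, a microfibril protein (0.551), and Col5a3, a collagen chain (0.690).

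**Figure D4:**
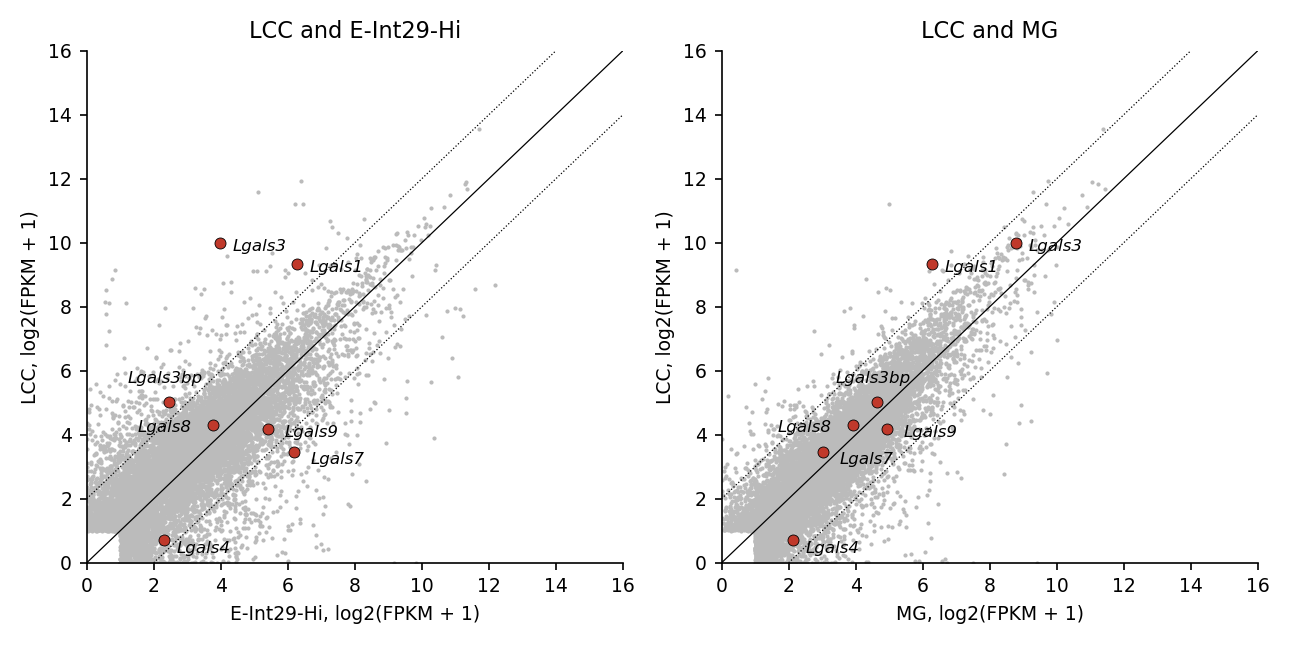
Log2(FPKM + 1) in LCC (y axis) against E-Int29-Hi (left, x axis) and against MG (right, x axis) for every gene that passed the 1 FPKM filter (grey) and the 7 galectin-related genes (red). The solid line marks equal levels and the dotted lines 4-fold differences. Lgals3 and Lgals1 lie far above the lines on the left, and Lgals1 alone does so on the right.

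Lgals3bp (ENSMUSG00000033880), which encodes the galectin 3 binding protein, a secreted scavenger receptor cysteine-rich glycoprotein, followed the order of Lgals3 at a lower level. It stood at 31.8 FPKM in LCC, 4.50 FPKM in E-Int29-Hi and 23.9 FPKM in MG. LCC and MG were close, and E-Int29-Hi was again low. The log2 change was 2.58 for LCC over E-Int29-Hi, 0.40 for LCC over MG and -2.18 for E-Int29-Hi over MG. A pseudocount of 5 FPKM took it below 4-fold in both comparisons with E-Int29-Hi (1.95 and -1.61), and median ratio scaling did so for E-Int29-Hi over MG (-1.88). The genes nearest in pattern were Plcg2, a phospholipase of leukocyte signalling (distance 0.0651), Rab25, an epithelial Rab GTPase (0.0731), and Smoc2, a matricellular protein (0.0961). The nearest markers were the pan-leukocyte gene Ptprc (0.309) and the luminal keratin gene Krt8 (0.439).

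Of the tandem-repeat galectins, Lgals8 and Lgals9 stayed within 4-fold in all 3 comparisons, whereas for Lgals4 the scale decided the call. Lgals8 (ENSMUSG00000057554), whose product binds integrins and, in human cells, marks damaged vesicles for autophagy, stood at 18.6 FPKM in LCC, 12.6 FPKM in E-Int29-Hi and 14.1 FPKM in MG. The 3 libraries lay within 1.48-fold of each other. The log2 changes of 0.53 for LCC over E-Int29-Hi and 0.38 for LCC over MG lay below those of 38.8% and 31.9% of all genes. The change of -0.15 for E-Int29-Hi over MG turned to 0.16 with median ratio scaling. The nearest patterns were those of Wbscr22, a methyltransferase (distance 0.00448), Specc1 (0.0151) and Rab12, a Rab GTPase (0.0156), and, among markers, Cd68 (0.66) and Emcn (0.88).

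Lgals9 (ENSMUSG00000001123), which encodes galectin 9, an interferon-induced ligand of the T cell receptor TIM-3, stood at 17.2 FPKM in LCC, 41.7 FPKM in E-Int29-Hi and 29.7 FPKM in MG. LCC was lowest and E-Int29-Hi highest. The log2 change was -1.23 for LCC over E-Int29-Hi, past 2-fold but not 4-fold. It was -0.76 for LCC over MG and 0.48 for E-Int29-Hi over MG. In E-Int29-Hi, Lgals9 lay above Lgals3, the reverse of its place in LCC and MG. The nearest genes were Chd1, a chromatin remodeller (distance 0.0258), Adam9, a metalloprotease (0.0266), and Zfp385a (0.0281), and the nearest markers were Lipe (0.299) and Trp63 (1.07). The TIM-3 gene Havcr2 stood at 6.13 FPKM in LCC, 0.162 FPKM in E-Int29-Hi and 1.07 FPKM in MG, the opposite order to Lgals9 between LCC and E-Int29-Hi.

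Lgals4 (ENSMUSG00000053964), which encodes galectin 4, known from the epithelium of the digestive tract, was the lowest of the 7 genes in every library. It stood at 0.626 FPKM in LCC, 3.93 FPKM in E-Int29-Hi and 3.40 FPKM in MG. LCC alone was low. The log2 changes of -1.60 over E-Int29-Hi and -1.44 over MG were past 2-fold. With a pseudocount of 0.1 FPKM they passed 4-fold (-2.47 and -2.27), and with TPM rescaling as well (-2.29 and -2.26), whereas a pseudocount of 5 FPKM gave -0.67 and -0.58. The 8 intestinal markers summed to 2.07 FPKM in LCC, 1.99 FPKM in E-Int29-Hi and 4.32 FPKM in MG, with Cdx1 listed at 0 in each. Lgals6, a near copy of Lgals4 known from some mouse strains, was not analysed here, and the Lgals4 level is uncertain to that extent.

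Among other genes of the family, 4 were found of a list of 5. Lgalsl, the galectin-like gene listed as 1110067D22Rik, stood at 7.46 FPKM in LCC, 8.02 FPKM in E-Int29-Hi and 9.79 FPKM in MG. Lgals2, a prototype galectin of the gut, stood at 0.699 FPKM in LCC, 0.315 FPKM in E-Int29-Hi and 0.258 FPKM in MG. Lgals12, the adipocyte galectin, stood at 0.0495 FPKM in LCC, 0.570 FPKM in E-Int29-Hi and 0.691 FPKM in MG. The 9 adipocyte markers summed to 72.6 FPKM in LCC, 297 FPKM in E-Int29-Hi and 885 FPKM in MG, of which Fabp4, a fatty acid binding protein that endothelium also makes, held 60.4, 276 and 845 FPKM. Grifin, known from the lens, was listed at 0 in LCC and E-Int29-Hi and stood at 0.0408 FPKM in MG. Apart from Lgalsl, these genes stayed under 1 FPKM in every library.

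The enzymes that build and cap galectin ligands were counted by the same rule. Galectins bind N-acetyllactosamine, which is added to N-glycan branches made by the Mgat enzymes and extended by the B4galt and B3gnt enzymes. Of 17 genes of this list, 15 passed the filter, and sums were 284 FPKM in LCC, 260.3 FPKM in E-Int29-Hi and 263 FPKM in MG for the 17. For LCC over E-Int29-Hi, 0 were at least 4-fold higher and 1, Gcnt2, was lower, or 6.67% of the list against 8.99% of all genes. For LCC over MG and for E-Int29-Hi over MG, 0 were higher and 0 lower, against 3.96% and 6.57% of all genes in either direction. For so few genes a count of 0 is near these shares. The median log2 change was 0.04, -0.13 and -0.25 in the comparisons LCC over E-Int29-Hi, LCC over MG and E-Int29-Hi over MG, beside 0.26, 0.01 and -0.23 over all genes. Gcnt2, which makes branched poly-N-acetyllactosamine (I antigen), stood at 9.88 FPKM in LCC, 63.9 FPKM in E-Int29-Hi and 34.2 FPKM in MG. B4galt1, the main galactosyltransferase of lactosamine synthesis, stood at 72.2 FPKM in LCC, 35.5 FPKM in E-Int29-Hi and 60.1 FPKM in MG. Mgat4b, a branching enzyme, stood at 56.8 FPKM in LCC, 15.2 FPKM in E-Int29-Hi and 22.0 FPKM in MG. Mgat5, which makes the branch on which long lactosamine chains are built, stood at 4.22 FPKM in LCC, 5.20 FPKM in E-Int29-Hi and 12.5 FPKM in MG.

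Of 12 sialyl- and fucosyltransferase genes, 8 passed the filter in both comparisons of LCC and 9 in that of E-Int29-Hi with MG, and 0 were at least 4-fold apart in any of them. The shares of all genes were 8.99% for LCC over E-Int29-Hi, 3.96% for LCC over MG and 6.57% for E-Int29-Hi over MG, so for so few genes a count of 0 is near the background. St6gal1, whose sialic acid cap blocks binding of galectin 1, stood at 9.42 FPKM in LCC, 12.1 FPKM in E-Int29-Hi and 6.89 FPKM in MG. St3gal1, which caps O-glycans, was the highest of the list, at 38.9 FPKM in LCC, 62.8 FPKM in E-Int29-Hi and 48.7 FPKM in MG. The median log2 change was -0.13, -0.11 and 0.15 in these comparisons, beside 0.26, 0.01 and -0.23 over all genes.

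Of 26 genes of glycoproteins known to bind galectins, 4 were at least 4-fold higher in LCC than in E-Int29-Hi and 1, Itga6, was lower. That is 19.2% of the list against 8.99% of all genes, with a median log2 change of 0.50 beside 0.26 over all genes. Those higher were Fn1, fibronectin, at 138 FPKM in LCC and 15.2 FPKM in E-Int29-Hi, Cd47, an anti-phagocytic surface protein, at 100.4 and 14.3 FPKM, Ptprc, the CD45 phosphatase of leukocytes, at 15.3 and 1.38 FPKM, and Havcr2. Itga6, the α6 integrin, stood at 26.8 FPKM in LCC, 351 FPKM in E-Int29-Hi and 93.0 FPKM in MG, and is also a basal marker. For LCC over MG, 1 of 26, Cd44, was higher, and Kdr and Lama5 were lower (11.5% against 3.96%, median 0.41 beside 0.01). Cd44, the hyaluronan receptor, stood at 649.4 FPKM in LCC, 169 FPKM in E-Int29-Hi and 149 FPKM in MG, close to the level of Lgals1 in LCC, but its change over MG (log2 2.12) was under 4-fold with TPM rescaling. For E-Int29-Hi over MG, 0 of 25 were higher, and Kdr, Fn1 and Thy1 were lower (12.0% against 6.57%, median -0.10 beside -0.23). That count became 0 higher and 6 lower with TPM rescaling and with a pseudocount of 0.1 FPKM, and 2 higher and 2 lower with median ratio scaling. Ptprc is also on the leukocyte marker list, Kdr on the endothelial and Thy1 on the fibroblast list. Itgb1, the β1 integrin of the CD29 gate, stood at 401 FPKM in LCC, 296 FPKM in E-Int29-Hi and 198 FPKM in MG. Lamp1, a lysosomal glycoprotein, stood at 208 FPKM in LCC, 92.3 FPKM in E-Int29-Hi and 111 FPKM in MG.

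Of 14 genes that act with cytosolic galectins at damaged vesicles or in autophagy, 13 were found. For LCC over E-Int29-Hi, 0 were at least 4-fold higher and Map1lc3a was lower, at 17.8 FPKM in LCC and 99.8 FPKM in E-Int29-Hi (7.69% against 8.99% of all genes, median 0.17). For LCC over MG, 0 were past 4-fold in either direction, against 3.96% of all genes, and the median was -0.06. For so few genes a count of 0 is near that share. For E-Int29-Hi over MG, Map1lc3a, with 21.1 FPKM in MG, was higher and 0 were lower (7.69% against 6.57%, median -0.23). The medians over all genes were 0.26, 0.01 and -0.23 in the order of these comparisons. Sqstm1, the p62 autophagy receptor and the highest of the list, stood at 728 FPKM in LCC, 289.7 FPKM in E-Int29-Hi and 555 FPKM in MG. Gabarap, an ubiquitin-like protein of autophagosomes, stood at 204 FPKM in LCC, 115 FPKM in E-Int29-Hi and 97.7 FPKM in MG. Trim16, a partner of galectin 3 at damaged membranes in human cells, stood at 5.61 FPKM in LCC, 2.91 FPKM in E-Int29-Hi and 11.8 FPKM in MG.

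**Figure D5:**
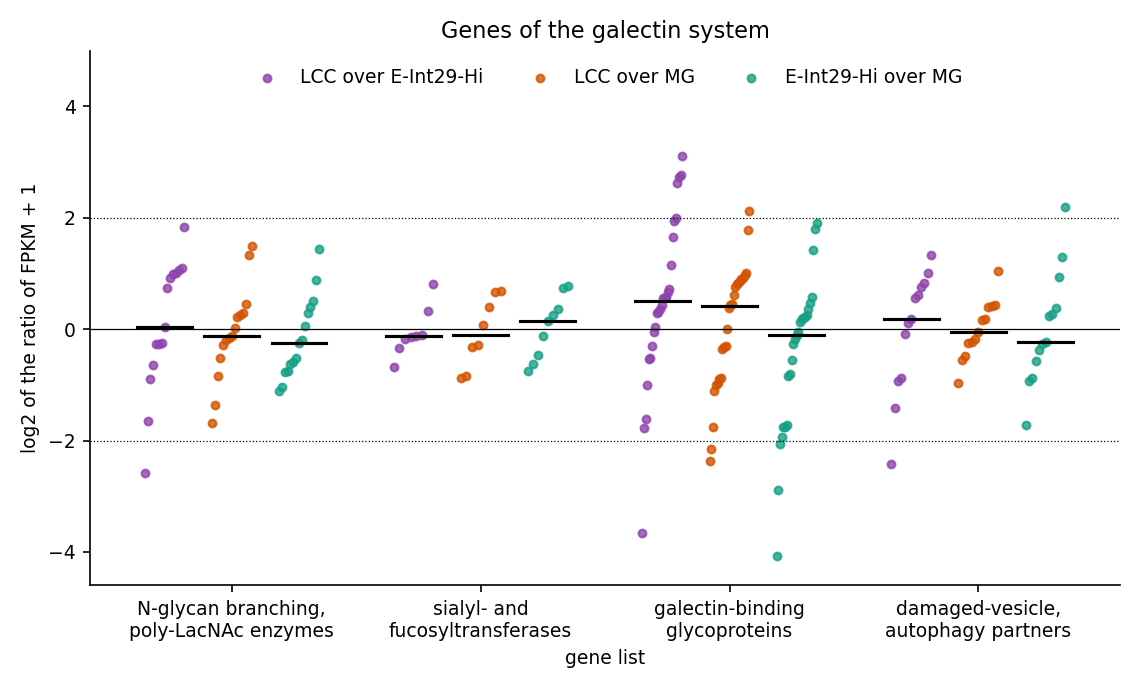
Log2 ratio of FPKM + 1 (y axis) of each gene passing the filter in 4 gene lists of the galectin system, by comparison, with 1 point per gene and a bar at the list's median. Dotted lines mark 4-fold differences. The glycoprotein list spans the widest range, from -4.07 to 3.11, while all sialyl- and fucosyltransferases lie within -0.88 to 0.80.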

How the data were processed

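Per the labels, mRNA was isolated on poly-T beads with a TruSeq kit. The authors deposited FPKM values with a status for 22378 genes per library. The submitters' processing notes name TopHat 1.4.1, Cufflinks 1.3.0 and mm9 but not what each was used for. The annotation release and the use of strand are not given in the sources used here. RefSeq tables were of another build (GRCm38.p6) and were used for promoter windows, names and gene order only.

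Genes had to have status OK throughout (22188), and for a repeated name the model with the highest summed FPKM was kept (22077 names). All 7 galectin-related genes had 1 model and status OK. Log2 ratios of FPKM + 1 were taken where at least 1 library of a pair reached 1 FPKM, and 4-fold and 2-fold differences were counted. No count data were given, so there is no interval or depth behind a value. The 7 genes, by name, and all lists were chosen with earlier results of these data known: 15 lists of 173 genes, 171 found, Map1lc3b and Lgals6 not among the names. Named genes were the 7 genes, up to 4 list members with the highest FPKM or 4-fold apart, and for each galectin-related gene reaching 10 FPKM the 3 nearest genes and 2 nearest markers by Euclidean distance of centred log2 levels. Mgat5, Lamp1, Trim16, Pgr, Esr1, Cd163, Siglec1 and Mrc1 fall outside that rule, and they and St6gal1 were picked with values in view. The 8 alternatives are given in the closing section. The log2 and call steps were run on copied MG values multiplied by known folds without noise. That checks the arithmetic only and says nothing about error between libraries. Python 3.11.15, numpy 2.4.6, pandas 2.3.3 and matplotlib 3.10.9 were used.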

Additional observations from a re-analysis of the deposited data

How the results depend on the processing

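Of 126 log2 changes of the 7 genes recomputed with another pseudocount, scaling, status rule or model rule, 117 kept their direction and their side of 4-fold, 2 turned in sign, 3 dropped under 4-fold and 4 passed it. The status and model rules could not move any of these, since all 7 genes had 1 model and status OK. Those recomputations are among the 117, and only the pseudocounts and scalings could bring a change. The 2 that turned were Lgals1 (0.33) and Lgals8 (0.16) in E-Int29-Hi over MG with median ratio scaling. The number of genes at least 4-fold lower was 2 instead of 1 in LCC over E-Int29-Hi, and 1 instead of 0 in LCC over MG, with a pseudocount of 0.1 FPKM and with TPM rescaling, in each case through Lgals4. It was 1 instead of 2 in E-Int29-Hi over MG with a pseudocount of 5 FPKM and with median ratio scaling, through Lgals3bp. The number at least 4-fold higher changed in 1 comparison: LCC over E-Int29-Hi gave 2 instead of 3 with a pseudocount of 5 FPKM. With no filter and with one at 5 FPKM the counts were as reported. The median ratio divisors were 1.05 for LCC, 0.863 for E-Int29-Hi and 1.09 for MG. Of 192 list counts at 4-fold, 11 moved by over 1.5 times, 9 of them for the glycoprotein list. For that list, LCC over E-Int29-Hi gave 2 higher instead of 4 with a pseudocount of 5 FPKM and 2 lower instead of 1 with median ratio scaling and TPM rescaling. LCC over MG gave 2 higher instead of 1 with a pseudocount of 0.1 FPKM, 0 higher with TPM rescaling, and 0 lower instead of 2 with a pseudocount of 5 FPKM. TPM rescaling added 1 lower gene to the glycan branching list in LCC over MG and 1 to the damaged-vesicle list in E-Int29-Hi over MG. Of 96 list medians, 8 turned in sign. In LCC over E-Int29-Hi the glycan branching list had -0.25 without a filter, -0.23 with median ratio scaling and -0.47 with TPM rescaling, and the damaged-vesicle list -0.11 and -0.0266 with the same scalings. In E-Int29-Hi over MG median ratio scaling gave 0.00504 for the glycan branching list, 0.26 for the glycoprotein list and 0.10 for the damaged-vesicle list. No paired analysis was possible because each group has 1 library. Without replicates or read totals, small differences, such as those of Lgals8, cannot be set against any error.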

Other observations

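By gene order in RefSeq (GRCm38.p6), Lgals4 and Lgals7 are next to each other on chromosome 7, yet only Lgals7 stood at least 4-fold higher in E-Int29-Hi relative to MG. On the other side of Lgals7, Capn12, a calpain gene, stood at 0.734 FPKM in LCC, 0.420 FPKM in E-Int29-Hi and 0.355 FPKM in MG. The genes beside Lgals3 on chromosome 14 stood at 47.7 FPKM in LCC, 37.8 FPKM in E-Int29-Hi and 51.9 FPKM in MG for Mapk1ip1l, and at 0.453, 0.146 and 0.457 FPKM for Dlgap5. The gene after Lgals9 on chromosome 11, Ksr1, a scaffold of MAP kinase signalling, stood at 5.78 FPKM in LCC, 49.8 FPKM in E-Int29-Hi and 7.47 FPKM in MG, at least 4-fold apart in both comparisons with E-Int29-Hi (log2 change -2.91 for LCC over E-Int29-Hi and 2.58 for E-Int29-Hi over MG), whereas Lgals9 was not. On its other side, Nos2, the inducible nitric oxide synthase, stood at 2.54 FPKM in LCC, 0.233 FPKM in E-Int29-Hi and 0.954 FPKM in MG. These neighbours were looked up after the galectin values were seen.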
